A study of Drosophila melanogaster with 3 samples.

Results

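The genes described here are protein-coding genes of Drosophila melanogaster that lie whole inside a single intron of another protein-coding gene, set beside the genes that host them. They were chosen from the Ensembl annotation by position alone: a gene was nested when every host transcript overlapping it had the gene inside 1 intron. Of 13945 protein-coding genes on the chromosomes covered, 1315 (9.43%) were nested, and they sat in 712 host genes. The data were chromatin immunoprecipitation and sequencing (ChIP-seq) maps of putzig (pzg) in whole embryos aged 0 to 24 h, in 3 biological replicates of 1 group. The embryos were of mixed sex and came from a single transgenic line in which GFP was fused to the C terminus of putzig, so every sample carried the tagged protein, and no untagged or untreated group was analysed here. Many cell types are pooled in a whole embryo, so binding in more cells and stronger binding in each cell cannot be told apart. The library descriptions call all 3 samples input controls, while their assay and antibody fields name putzig ChIP-seq, and the labels do not settle this conflict.

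Putzig, a nuclear protein with zinc fingers, works with Trf2, a relative of the TATA-binding protein, and with Dref, which binds the DNA replication-related element; it also joins the chromatin remodeller NURF. It is known to be needed for the expression of replication genes in growing tissue. Genes inside introns are common in flies, and many have a promoter of their own, read from chromatin that the host's transcription also crosses. In flies, several well-known nested genes serve 1 tissue or 1 stage, such as cuticle and salivary glue genes.

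A nested gene was called bound when a summit of the authors' reproducible peak list, which holds 6522 summits, lay within 250 bp of one of its transcription start sites (TSSs). Each replicate was read the same way with its own 6522 strongest peaks, and signal means the deposited peak signal, whose scale is not named. Sequences from the RefSeq genome (dm6) show what the promoters looked like, with capitals marking a core promoter motif found in them. The motifs were the DNA replication-related element (DRE), TATCGATA, and Motif 1, GGTCACAC, each searched on both strands. Within 250 bp before to 50 bp after a TSS, 7.98% of all coding promoters held the DRE and 6.72% held Motif 1. The following 4 were picked from the 12 nested genes with the strongest summits because they hold the DRE or Motif 1. Each holds Motif 1, which the choice itself favours. The gene esc encodes a Polycomb group protein, Hacd2 a fatty acid elongation enzyme, and lute and CG14043 are named only. Motif 1 spans bases 28 to 35 from the TSS (base 0) in esc, -63 to -56 in lute, 0 to 7 in Hacd2 and -180 to -173 in CG14043. In CG14043 the motif lies between the nested TSS and a TSS of the host, 217 bp away. The summit there lay 12 bp from that host TSS, so it cannot be told which promoter the motif and summit belong to.
esc, chr2L:11829360-11829387, minus strand: ccgtgactggGGTCACACcattgccgcc
lute, chr3R:17385771-17385890, plus strand: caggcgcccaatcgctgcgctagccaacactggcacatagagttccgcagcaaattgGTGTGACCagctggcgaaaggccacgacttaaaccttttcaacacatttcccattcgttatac
Hacd2, chr2L:13445634-13445661, minus strand: ccccttgtgtGGTCACACaggcagtgct
CG14043, chr2L:4971486-4971701, plus strand: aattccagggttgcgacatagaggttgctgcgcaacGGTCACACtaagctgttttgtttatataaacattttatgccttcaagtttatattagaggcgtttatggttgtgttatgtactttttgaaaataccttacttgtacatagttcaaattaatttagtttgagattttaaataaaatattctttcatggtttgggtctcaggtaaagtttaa

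The next 3 promoters, of bound nested genes with a DRE, were chosen after their values were seen. Spc25 encodes a kinetochore protein, dor (deep orange) a protein of vesicle traffic to the lysosome, and Josd a deubiquitinase of the Josephin family. The DRE lies at -81 to -74 in Spc25, -13 to -6 in dor and -71 to -64 in Josd, and their summits lay at -48, -30 and -68 bp. The Spc25 summit also lay near a TSS of its host grsm, 102 bp from that of Spc25. Both this summit and the DRE lie between the TSSs of Spc25 and grsm, so it cannot be told which promoter they belong to.
Spc25, chr3R:12961644-12961744, plus strand: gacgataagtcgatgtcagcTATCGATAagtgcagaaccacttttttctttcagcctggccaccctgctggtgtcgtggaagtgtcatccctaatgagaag
dor, chrX:1664932-1665051, plus strand: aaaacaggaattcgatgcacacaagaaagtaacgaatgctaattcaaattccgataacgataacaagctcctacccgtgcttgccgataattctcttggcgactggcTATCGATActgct
Josd, chrX:6261049-6261168, plus strand: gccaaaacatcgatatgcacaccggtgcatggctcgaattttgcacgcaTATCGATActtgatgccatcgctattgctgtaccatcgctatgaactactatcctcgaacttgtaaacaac

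For contrast, 2 nested genes had the same element at a like distance and were not bound. In CG42854, inside forked (f), it lies at -70 to -63, and in CG9692, inside Lasp and CG43954, at -95 to -88. The peak list of the pooled replicates, which also holds weaker peaks, had a summit of signal 46.9 at CG42854 and none at CG9692. Both genes were also chosen after their values were seen.
CG42854, chrX:17247017-17247136, minus strand: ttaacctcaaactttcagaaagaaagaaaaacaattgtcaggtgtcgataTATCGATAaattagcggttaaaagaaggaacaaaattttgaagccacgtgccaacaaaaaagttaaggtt
CG9692, chr3L:16704853-16704972, plus strand: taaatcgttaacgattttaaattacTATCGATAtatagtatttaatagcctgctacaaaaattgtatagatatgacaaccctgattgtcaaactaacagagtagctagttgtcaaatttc

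Binding at nested promoters was far less frequent than at promoters of their hosts or of other coding genes. A reproducible summit lay at 127 of the 1315 nested genes, or 9.66% (95% Wilson interval 8.18 to 11.4), while 42.6% of all coding genes were bound. Among host genes 351 of 712 (49.3%, 45.6 to 53.0) were bound, and among all 12630 genes that were not nested 5812 (46.0%) were. The replicates' own lists gave 9.43%, 9.43% and 9.51% for nested genes, 47.8%, 48.3% and 47.5% for hosts and 45.8%, 45.7% and 45.1% for genes that were not nested. The 3 nested values did not overlap those of either other group. All 3 lists were cut to the same length, which limits how far the replicates can differ.

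The nested share minus that of genes that were not nested was -36.4 percentage points, and -36.1 ± 0.443 (SD, n = 3) over the replicates. Against hosts the difference was -39.6 points in the reproducible list and -38.4 ± 0.463 (SD, n = 3) over the replicates. Both differences had the same sign in 3 of 3 replicates, and the two-sided exact sign-flip permutation test gave p = 0.25 for each, the smallest value that 3 replicates allow. Counted by TSS, 137 of 1483 nested TSSs (9.24%) were bound, beside 36.3% of all coding TSSs. At hosts 441 of 1556 TSSs (28.3%) were bound, and hosts had 2.19 TSSs a gene against 1.13 in nested genes, so shares per gene and per TSS differ more in hosts. In all 3 replicates at once, 108 nested genes (8.21%) were bound, beside 39.2% of all coding genes.

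**Figure D1:**
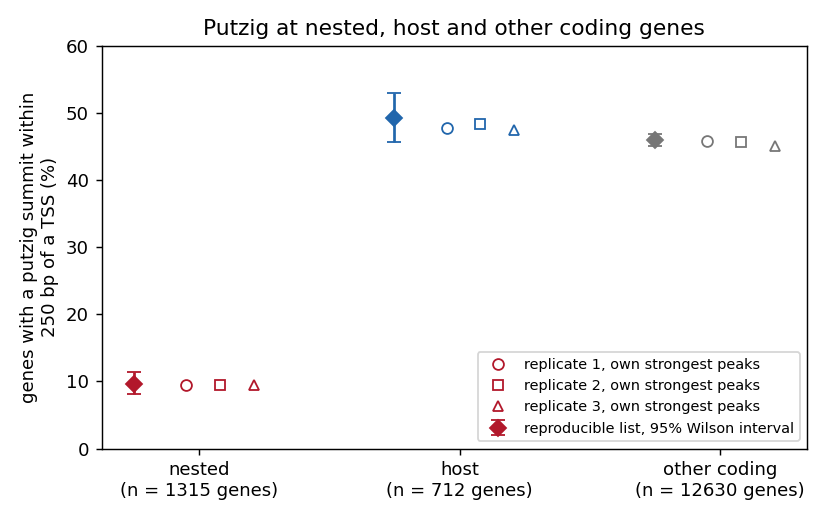
Share of genes bound by putzig (y axis, percent) in nested genes, host genes and all genes that were not nested; open symbols are the 3 replicates' own strongest peaks and filled diamonds the reproducible list with 95% Wilson intervals. The nested diamond stands at 9.66%, far under 49.3% for hosts and 46.0% for the rest.

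Nested genes differ from other genes in structure, so the shares were also read within like structure. Their median span was 1283 bp, against 2314 bp for genes that were not nested and 23801 bp for hosts, and 37.3% were single-exon genes against 12.9%. They had 1 TSS in 89.4% of cases, against 71.8%, and 87.5% had no TSS of another gene within 500 bp, against 63.3%. Binding was more frequent at longer spans in nested genes: 2.89% (14 of 484) were bound under 1 kb, 9.23% at 1 to 2 kb, 16.6% at 2 to 5 kb and 25.6% (22 of 86) at 5 kb or more. The shares of genes that were not nested in the same spans were 23.6%, 45.6%, 56.7% and 49.5%, above the nested share each time. Single-exon nested genes were bound in 6.11% of cases (30 of 491) and those with several exons in 11.8% (97 of 824), against 25% and 49.1% of genes that were not nested. The latter are called genes outside introns from here on. The name is loose, because some of them lie in an intron of only part of the overlapping host transcripts. A looser nesting rule that admits these held 1368 genes. Nested genes with 1 TSS were bound in 8.60% of cases, with 2 in 16.7% and with 3 or more in 30% (6 of 20).

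The combined strata kept the order. Of 394 nested genes with several exons, 1 TSS, a span of 1 to 5 kb and no other TSS within 500 bp, 33 (8.38%) were bound, against 33.7% of such genes outside introns. Of 355 single-exon nested genes under 2 kb with 1 TSS and no near TSS, 14 (3.94%) were bound, against 13%. On each chromosome arm that held nested genes their share was 7.67 to 10.9%, against 42.4 to 52.4% for genes that were not nested. Chromosome 4, with 80 coding genes, held 0 nested genes.

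**Figure D2:**
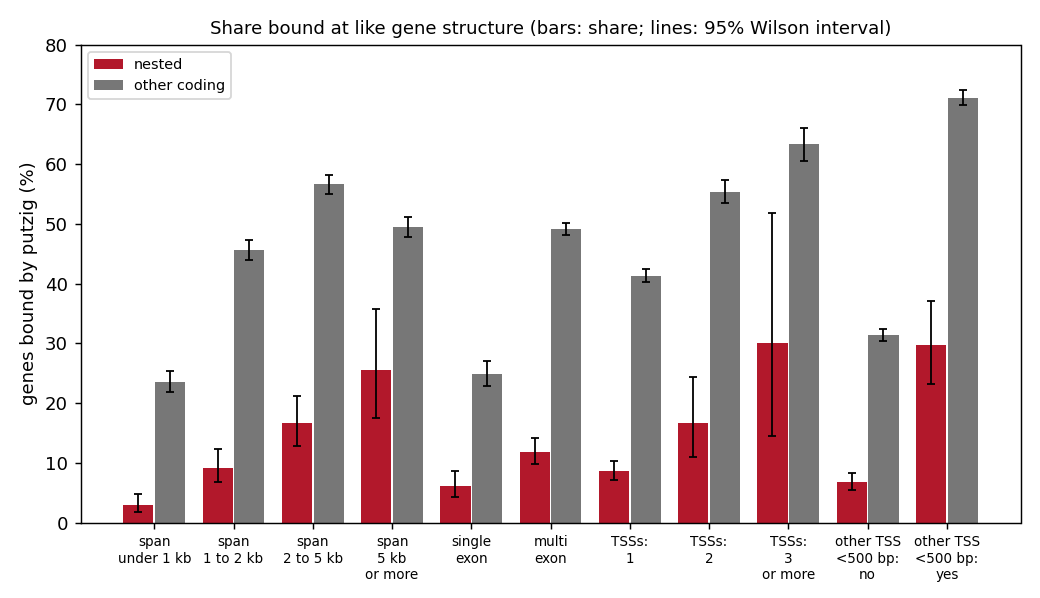
Share of genes bound (y axis, percent) in nested genes (red) and genes that were not nested (grey) by span, exon number, TSS number and nearness of another gene's TSS; lines are 95% Wilson intervals. The nested bar is the lower one in all 11 strata, from 2.89% against 23.6% under 1 kb to 29.7% against 71.1% beside another TSS.

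Inside the host, binding was most frequent close to the host's own promoter. With the nested TSS less than 500 bp from a host TSS, 26 of 40 genes (65%) were bound, and in 20 of them the same summit also lay within 250 bp of the host TSS, so it cannot be told which promoter it belongs to. Without those 20, 6 of 20 (30%) were bound; leaving them out removes bound genes only, so the share could only be lower. At 0.5 to 2 kb the share was 13.5% (21 of 156), at 2 to 10 kb 9.79% (56 of 572) and at 10 kb or more 4.39% (24 of 547). The share was lower at each step away from the host promoter.

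**Figure D3:**
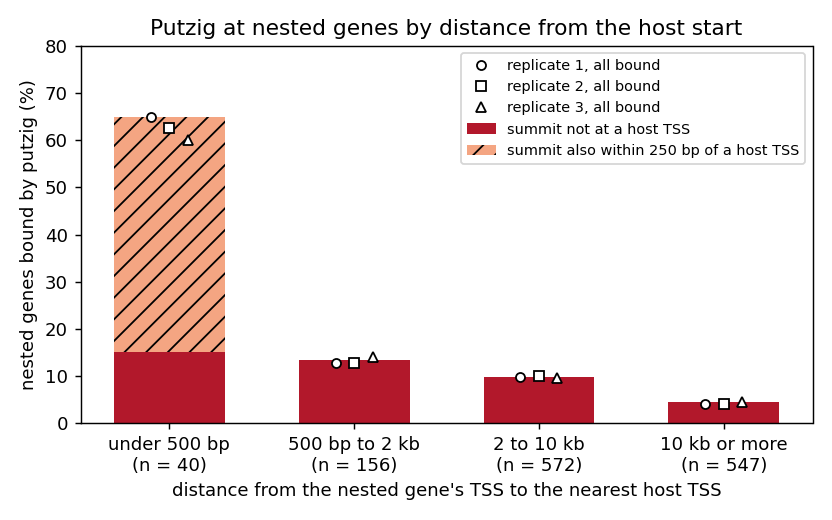
Share of nested genes bound (y axis, percent) by distance from the nested TSS to the nearest host TSS (x axis); the hatched part of the bar marks summits also within 250 bp of a host TSS, and open symbols are the 3 replicates. The bars run from 65% under 500 bp to 4.39% at 10 kb or more.

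Other features of the host went the same way. In introns under 5 kb 18.2% of nested genes were bound, at 5 to 20 kb 8.45%, at 20 to 50 kb 6.16% and at 50 kb or more 3.98%. In first introns, which held 42.5% of nested genes, 11.8% (66 of 559) were bound, and in later introns 8.07% (61 of 756). A gene alone in its intron was bound in 12.1% of cases (76 of 626), and 1 of 3 or more in the same intron in 6.71% (30 of 447). Intron length, distance to the host TSS and number of nested genes go together, and their parts were not separated.

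Nested genes in bound hosts were bound more often than those in unbound hosts, 14.1% (86 of 612) against 5.83% (41 of 703). The difference was 8.22 points, with 8.97 ± 0.114 (SD, n = 3) over the replicates, positive in 3 of 3, and the exact sign-flip permutation test gave p = 0.25, the smallest possible. Without the genes whose summit also lay at the host TSS, which are all bound genes in bound hosts, 11.1% were bound there, a fall that the choice itself sets. Among nested genes with no other TSS within 500 bp the difference was 2.09 points, and with only the TSS nearest each summit taken as bound it was 2.75 points. Counted as pairs of nested gene and host, both were bound in 88, the host alone in 544, the nested gene alone in 44 and neither in 681.

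Most nested genes, 913 or 69.4%, lay on the strand opposite to the host. Of those, 94 (10.3%, Wilson interval 8.49 to 12.4) were bound, against 33 of the 402 with a host on the same strand (8.21%, 5.90 to 11.3). The intervals overlap widely, so the counts do not resolve this difference of 2.09 points. Over the replicates it was 2.51 ± 0.0632 (SD, n = 3), positive in 3 of 3. The exact sign-flip permutation test gave p = 0.25, the smallest possible. The SD shows only how alike the 3 replicate lists were, all cut to the same length, and not counting error. Among genes with 1 TSS the difference was 0.679 points. Of the 20 bound genes that shared a summit with the host TSS, 18 lay on the opposite strand and 2 on the same strand, and leaving out these bound genes gave 0.742 points, a fall that the choice itself sets.

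Nested genes with a near TSS of another gene were bound more often than the rest. Of 165 nested genes with another gene's TSS within 500 bp, 49 (29.7%) were bound, against 6.78% (78 of 1150) of the rest. By kind of neighbour, the share was 65% beside a host TSS, 18.1% (17 of 94) beside another nested gene and 19.4% (6 of 31) beside another gene. In 16 of the 127 bound genes the summit also lay within 250 bp of another nested gene's TSS. There the same summit counts for each of the nested genes, which can raise the share beside another nested gene. These 16 include 6 entries for precursor pieces of mod(mdg4), which rest on 2 summits. The share beside another nested gene was not measured without this repeated counting. It cannot be told which of these promoters such a summit belongs to. The 127 bound genes had 118 distinct strongest summits, and 86 of the genes had a summit near no other gene's TSS. In the introns of the hosts away from any TSS, reproducible summits were rare, 6.73 per Mb, against 181 per Mb in windows at nested TSSs, 579 at host TSSs and 689 at TSSs of genes that were not nested. Nested promoters were thus 26.9 times as dense in summits as the introns around them, and other promoters 3.81 times as dense as nested ones.

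Of the 12 bound nested genes with the strongest summits, 5 shared the summit with a host TSS. The highest signal was at RpL41, which encodes a cytosolic ribosomal protein, on the minus strand at chr2R:24903416-24903935 inside NaCP60E, a sodium channel gene. Its summit had a signal of 9248 in the reproducible list, and 4034, 3637 and 1623 in replicates 1 to 3, at ranks 22, 17 and 24. It was high in every replicate, but it also lay at a NaCP60E TSS, 182 bp from that of RpL41. Shared summits also marked CG2059 inside CG1677 (6698), zpg, a germline gap junction gene, inside Rexo5 (4512), SmD3, a spliceosomal core protein gene, inside Oda (4364), and CG14043 (4034). For CG14043 the summit lay at -205 bp from the nested TSS. Over the 12 genes the ranks ran from 22 to 398 in replicate 1, from 17 to 463 in replicate 2 and from 24 to 770 in replicate 3, so all 12 were in the strongest peaks of each.

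The other 7 of the 12 had a summit away from the host TSS. The esc gene, on the minus strand at chr2L:11827204-11829405, encodes a subunit of the Polycomb complex PRC2 and had a signal of 4739, with 2242, 1689 and 811 in replicates 1 to 3. Those values ranked 195, 315 and 245 among each replicate's peaks, while its host Pde1c, a phosphodiesterase gene, had no reproducible summit at a TSS. Hacd2 (chr2L:13444103-13445651) had a signal of 4257, with 1962, 1591 and 759 in the replicates, and its host CG42784 was likewise unbound. Both genes were thus bound in all 3 replicates in a host without a reproducible summit.

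CG6621 had a signal of 5410 against 955 at its host Leash, and Pym, which binds the exon junction complex, 5173 against 2562 at its host bgcn. The translation factor gene eIF4G2 had 4707 against 2767 at CG34355, and its summit also lay near the TSS of CG33111. The lute gene had 4594 against 1588 at Brf, a subunit of the RNA polymerase III factor TFIIIB. Mfe2, a peroxisomal beta-oxidation enzyme gene, had 3899 against 869 at kat80, a katanin subunit gene. All 5 had a stronger summit than their hosts, an order that picking the strongest nested summits favours.

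Over all pairs with both genes bound, no such order held: 14 had 1 summit as the strongest of both, and of the other 74 the nested summit was stronger in 32 and the host's in 42. Among the 42 were cue, Gtpx, CG30373, Ufm1, Wsck and CG45218, whose summits also lay within 250 bp of a host TSS. There the host's strongest signal could not be the lower one. Also among the 42 were 6 entries for precursor pieces of mod(mdg4), which rest on 2 summits against 1 host value. The 32 and 42 are thus not counts of independent pairs. Over the same 74 pairs, with the same limits, the medians were 1339 for the nested gene and 1601 for the host. The nested summit was the stronger in 30, 27 and 33 pairs in replicates 1 to 3. Strong binding in an unbound host was also seen, among genes chosen after their values were seen, at sina (3397), a ubiquitin ligase gene of photoreceptor fate, inside the opsin gene Rh4, and at Sse (3179), the separase gene, inside sif. CG34132 and the spliceosomal gene SmE, side by side in the same intron of the unbound CG7102, shared 1 summit (2966).

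**Figure D4:**
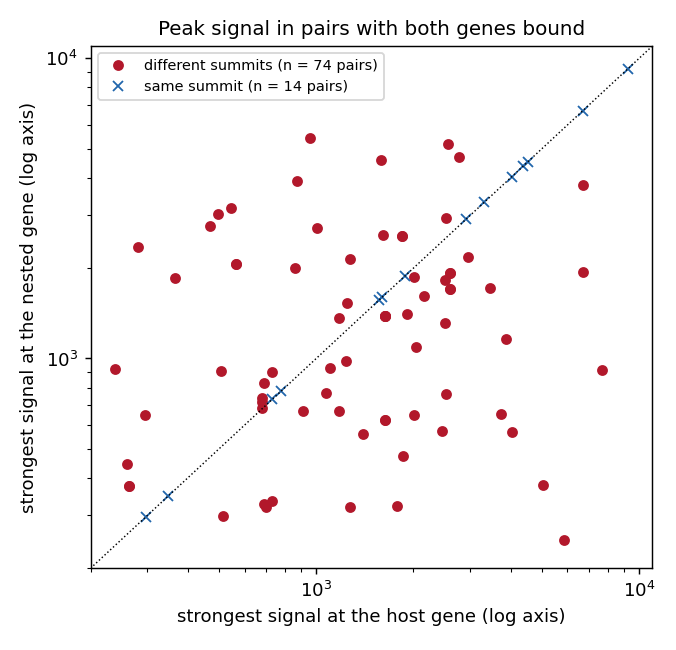
Peak signal at the host (x axis, log scale) and at the nested gene (y axis, log scale) for pairs with both bound; red points are pairs with different summits, blue crosses the 14 pairs with 1 strongest summit for both, and the diagonal marks equal signal. Points lie on both sides, with 32 nested and 42 host summits the stronger among 74 pairs with different summits. Where the nested summit also lay within 250 bp of a host TSS, the point cannot lie above the diagonal. Genes at the same positions overlap.

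Where a nested gene was bound, the summit was much like that of other genes in place and somewhat lower in signal. Counted by gene, the median position was -40 bp from the TSS, against -44 bp for genes that were not nested. The summit lay upstream at 107 of 127 genes (84.3%), against 86.4%. It lay within 100 bp of the TSS at 81.9% of genes, against 78.6%. The median signal was 1368 for nested genes, 1524 for genes that were not nested and 1644 for hosts. For nested genes whose summit lay near no other TSS it was 1007. The other groups were not limited in that way, so 1007 has no like value beside it. Against all bound coding genes the ratio of medians was 0.902 in the reproducible list and 0.896, 0.848 and 0.867 in the replicates, below 1 in all 3. Of the 127 genes, 48 (37.8%) fell under the 25th percentile of signal of all bound coding genes, 28 between it and the median, 23 between the median and the 75th percentile and 28 above. For most of the genes, 102 of 127, the strongest summit lay outside all exons.

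**Figure D5:**
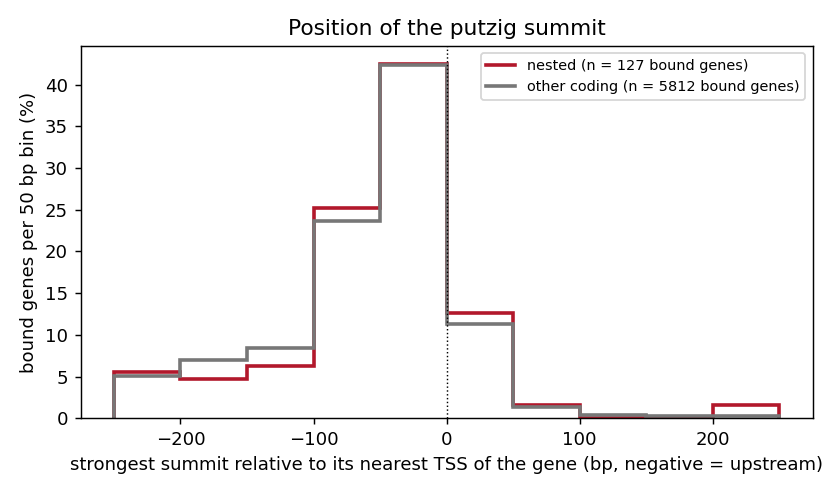
Position of the strongest summit relative to the TSS (x axis, bp, negative upstream) as the share of bound genes in each bin of 50 bp (y axis, percent) for nested genes and genes that were not nested. Both peak just upstream of the TSS, with medians of -40 and -44 bp.

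Of the 127 genes, 107 (84.3%) were found in all 3 replicates, which with mRRF1 makes the 108 above, against 91.9% of all bound coding genes, with 16 found in 2, 3 in 1 and 1 in 0. The strongest 103 were all found in each replicate. The 4 weakest bound genes were CG30022 (253), Nepl19 (251), a neprilysin-like peptidase gene, CG31759 (250) and CG45218 (249). None of these 4 was found in all 3 replicates, and CG31759 was in none of the replicates' strongest lists. The summit of CG45218 also lay at a TSS of its host Tm1, a tropomyosin gene whose strongest summit had a signal of 5843, while the hosts of the other 3, sprt, CG33203 and bru1, were unbound. Just outside the threshold were CG42399 (231 in the pooled list), Teh4 (224), a sodium channel accessory gene, mlt (224) and mRRF1 (222), a mitochondrial ribosome recycling factor gene. Their hosts ND-15 (1849) and Klp67A (1253) were bound, and CG18675 and KCNQ were not. Of the unbound nested genes, mRRF1 was the only one in the strongest peaks of all 3 replicates, and 12 others were in those of 1 or 2.

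Most unbound nested genes had no summit in the pooled list either. Of 1188, 165 (13.9%) had a weaker summit of the pooled list at a TSS, beside 23.3% of all unbound coding genes and 24.9% (1698 of 6818) of those not nested. Of all nested genes, 1023 (77.8%) had no pooled summit at any TSS, against 40.5% of genes that were not nested. Among the unbound genes 13 had a reproducible summit just outside the window, within 500 bp of a TSS. The pooled list ends at 30000 entries, so weaker sites are not seen. Among classic nested genes, Pcp, a pupal cuticle gene inside Gart, a purine synthesis gene, had a pooled summit of signal 57.4 at 165 bp and was not bound, nor was Gart. The salivary glue genes Sgs4 and ng1, and the gene Pig1, all lie inside dnc, the dunce phosphodiesterase gene. These nested genes had no summit in any list, while dnc had a reproducible summit of signal 257.

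Families read by symbol differed within the nested genes. Of 22 nested chemoreceptor genes, 17 cytochrome P450 genes, 14 seminal fluid genes, 11 cuticle genes, 5 salivary glue genes and 3 odorant binding genes, 0 of 72 were bound, which allows a share of up to 4.17% by counting. Members of the same 6 families outside introns were bound in 5 of 423 cases (1.18%). Without these families, 127 of 1243 nested genes (10.2%) were bound, against 47.6% of genes that were not nested. Genes known only by a CG number made up 64.9% of nested genes, and 5.98% of them (51 of 853) were bound, against 16.5% (76 of 462) of nested genes with other symbols. Outside introns these shares were 33.3% and 55.0%, so the order between nested and other genes was the same in both classes.

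Few nested genes belonged to families bound at most promoters. Of cytosolic ribosomal genes, 83 of 90 outside introns were bound, and of the 2 nested ones RpL41 was bound and RpS10a was not. Of proteasome genes, 33 of 44 outside introns were bound and 1 of 4 nested ones, Rpt1, an ATPase of the regulatory particle, inside CG17985 with a signal of 1856. The nested Prosalpha4T1, Rpn12R and Rpn13R had no reproducible summit. Of their relatives outside introns, Prosalpha4 (869), Rpn12 (1285) and Rpn13 (2521) were bound and Prosalpha4T2 was not, and RpS10b, the relative of RpS10a, had 2418; this set was picked with the values in view. How like these relatives are in sequence was not measured, and whether reads were split between them was not tested. No source used here describes the alignment.

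The 43 hosts with 5 or more nested genes held 332, of which 25 (7.53%) were bound, near the 9.66% over all nested genes. The cell adhesion gene kirre held 20, with CG3603 and CG32795 bound, and the potassium channel gene SLO2 held 17, with 0 bound; neither host had a reproducible summit. Flo2, a flotillin gene, held 16, with 0 bound despite a host summit of 2133, and Pde1c held 14, of which only esc was bound. CG1677 held 13, with unc-119, CG2059 and Atg5, an autophagy gene, bound and a host signal of 6698. At the trans-spliced gene mod(mdg4), 6 entries for precursor pieces, annotated as genes on the opposite strand, shared 2 summits with signals of 1382 and 624. The summit of 1382 also lay near TSSs of pre-mod(mdg4)-E, -U, -V and -W, which were not nested. Without the 6 nested entries 9.24% of nested genes were bound, while entries that were not nested were kept.

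The DRE and Motif 1 were found mostly at bound TSSs, in nested genes and outside introns; these shares are descriptions, with no test. Outside introns the reversed DRE, a control, also lay mostly at bound TSSs (76 of 125, 60.8%), while 2 of its 13 nested promoters were bound. The DRE was present at 20 of 137 bound nested TSSs (14.6%) and 0.966% of unbound nested ones, against 19.0% and 1.83% of bound and unbound TSSs outside introns. Motif 1 gave 15.3% and 0.743% in nested genes, against 16.8% and 1.01%. The E-box CAGCTG stood at 24.1% and 12%, against 25.4% and 13.9%, and it was present at 17.9% of all coding promoters. TATAAAA stood at 17.5% and 23.6%, against 23.1% and 20.5%, with 21.6% of all coding promoters. The reversed DRE, ATAGCTAT, was at 1.46% (2 of 137) of bound and 0.817% of unbound nested TSSs, against 1.09% and 0.439% outside introns, with 0.704% of all coding promoters.

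Read the other way, 2.23% of nested promoters held the DRE against 8.45% of promoters of genes that were not nested, and 2.09% held Motif 1 against 7.10%. Of nested promoters with the DRE, 20 of 33 (60.6%, 43.7 to 75.3) were bound, against 1328 of 1532 (86.7%) outside introns, and with Motif 1 21 of 31 (67.7%) against 91.2%. Of nested promoters with neither, 99 of 1423 (6.96%) were bound, against 29.9%. The sequences printed above for CG42854 and CG9692 are of the unbound DRE class, and those for Spc25, dor and Josd of the bound one. A motif match is a description of letters in the window and names no site in use.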

How the data were processed

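Putzig ChIP-seq peak lists of 3 replicates, of the pooled replicates and of reproducible peaks were used. Per the deposited notes, each replicate's peaks come from its own alignment and 1 control alignment that all replicates share, in dm6 coordinates. No source used here names the caller or aligner. The signal deposited by the authors has no named scale and was used only within a list. The authors' −log10 q values stop at a ceiling and were not used. The deposited summit offset was added to the peak start. The replicate and pooled lists hold 30000 entries with background, and each replicate list was cut to its 6522 strongest. Read depth is unknown, intervals cover counting error only, and with 1 group no contrast of conditions was possible. Replicates share the control, and the reproducible list is not independent of them.

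Genes came from Ensembl release 115 and sequence from the RefSeq genome, in which 99.8% of 30593 start codons read ATG. Analyses used Python 3.11.15, numpy 2.4.6, scipy 1.17.1 and matplotlib 3.10.9. The functions were tested on simulated data. The members and lists were chosen with earlier results of these data known. Named genes were the 12 bound ones with the strongest summits, the 4 weakest, the 4 unbound ones with the strongest pooled summit, 4 classic nested genes, their hosts and the 5 hosts with most nested genes; others are marked as chosen after their values were seen. Rh4 and VAChT, also in the rule, were not nested. Alternatives covered the peak set, window, TSS choice and nesting rule.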

Additional observations from a re-analysis of the deposited data

How the results depend on the processing

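The nested share of 9.66% was 5.32% with summits above the median signal, 8.14% with summits found in all 3 replicates and 22.2% with the whole pooled list. It was 8.06% within 100 bp and 10.6% within 500 bp, 9.43% at the 5′-most TSS and 8.52% with each summit given to its nearest TSS. It was 6.78% without genes near another TSS, 11% with 1 gene per intron, 10.6% under a looser nesting rule and 8.60% for genes with 1 TSS. Leaving out each replicate gave 9.43 to 9.47%. Alternatives chosen after seeing the data gave 8.26% without genes whose summit is shared with a host TSS (bound genes only, so lower by construction), 6.78% for genes isolated from other TSSs and 9.24% without the mod(mdg4) pieces. All 4 differences kept their direction in 17 of 17 alternatives, ranging from -39.7 to -24.7 points against genes not nested, from -53.2 to -27.8 against hosts, from 0.679 to 5.47 for strand and from 2.09 to 10.3 for bound against unbound hosts. No paired analysis was possible because the labels hold 1 group. The depth is unknown, so what a missing summit could hide was not measured.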
